A study of Homo sapiens with 18 samples.

Results

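The immediate-early growth response genes studied here are 43 genes. Cells typically transcribe genes of this kind within minutes of a growth or stress signal, without first making new protein. The 43 were taken as a named list of gene symbols, and all were found among the 58870 genes of the count table. All 43 also had enough counts to be tested, out of 17743 genes tested in all. The list holds the 7 members of the FOS and JUN family, 4 EGR, 4 KLF and 3 NR4A transcription factors, 5 other transcription factors, 4 IER proteins, 6 phosphatases that switch off MAP kinases, 3 other feedback proteins, 3 RNA-decay proteins and 4 other products.

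The libraries were polyadenylated RNA of HEK293T, a transformed cell line from human embryonic kidney, and made up 18 libraries in 6 groups of 3. The cells had been transfected with X-tremeGENE 9 and 1 plasmid that carried both a base editor and its guide, kept in puromycin for 48 hours and lysed 72 hours after transfection. A base editor is a Cas9 nickase joined to a deaminase that changes single bases where its guide binds. SaABE joined ABE8e, an adenine deaminase, to the nickase of Staphylococcus aureus (plasmid pX462-ABE8e-nSaCas9), SpABE joined ABE8e to the nickase of Streptococcus pyogenes (pX461-ABE8e-nSpCas9), and SpCBE joined evoCDA1, a cytosine deaminase, to that same S. pyogenes nickase (pX461-evoCDA1-nSpCas9). Each editor came with an NRF1 guide, aimed at a splice site of its exon 7, or with an intergenic guide as its control, and all 6 groups received the plasmid, the editor and puromycin. No group without an editor was used here. SaABE had another intergenic guide than SpABE and SpCBE, so that editor, guide and plasmid cannot be told apart when SaABE is set against the others. SpABE and SpCBE differ in deaminase and plasmid together, and whether they shared an NRF1 guide is not given here. The study's counting does not state a use of strand here, so antisense or overlapping genes and close paralogues could share reads. The cells were transfected pools, and the share of cells edited was not measured in these files.

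Immediate-early genes are switched on by kinase cascades, chiefly ERK, JNK and p38, which act on factors already bound at their promoters. SRF, with its ELK and MRTF partners, binds the CArG box, and CREB binds the cyclic AMP response element (CRE). Their RNAs are short-lived, and many of their products, such as DUSP phosphatases, Sprouty proteins and ZFP36 proteins, close the response again by switching off the kinases or by destroying the RNAs.

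NRF1, the targeted gene, was higher with its own guide in every editor. Its level, in TMM-scaled CPM (counts relative to library size, the unit of every level here), was 31.5 to 33.1 with the intergenic guide and 39.4 to 41 with the NRF1 guide in SaABE, 26.7 to 28.8 and 35.7 to 41.6 in SpABE, and 24.4 to 26.0 and 38.3 to 43.8 in SpCBE. A count over the whole gene does not measure skipping of an exon, so these levels do not check the edit itself. Library totals ran from 28101094 to 40687447 estimated counts, and mitochondrial transcripts took 0.94% to 1.19% of them. The 8 markers that HEK293 cells express summed to 892 to 1120 CPM, here without TMM scaling, most of it from VIM. The 8 blood markers summed to 2.88 to 4.76, the 8 fibroblast markers to 16 to 25.9 and the 6 endothelial markers to 0.522 to 1.09. Most of the fibroblast sum came from COL1A1, and 1 blood marker had at most 3 counts over all libraries together. In such bulk RNA, fewer cells that express a gene and less RNA per cell cannot be told apart. The labels do not say whether the 3 libraries of a group are separate cultures, and p-values here therefore reflect library-to-library spread that may be technical.

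The 250 bases before the RefSeq start of 4 members show some of the elements through which such genes are known to be switched on. These members were chosen because the results turn on EGR1, FOS and DUSP1, while SRF codes for the factor that binds the CArG box. The stretches are on GRCh38.p14 and are printed 5′ to 3′ on the strand of the gene. Elements farther from the start were not looked for. Capitals mark CArG boxes, the CRE core TGACG (read on either strand, and part of the full CRE TGACGTCA) and the TATA box TATAAA.
EGR1 (chr5:138465229-138465478, plus strand): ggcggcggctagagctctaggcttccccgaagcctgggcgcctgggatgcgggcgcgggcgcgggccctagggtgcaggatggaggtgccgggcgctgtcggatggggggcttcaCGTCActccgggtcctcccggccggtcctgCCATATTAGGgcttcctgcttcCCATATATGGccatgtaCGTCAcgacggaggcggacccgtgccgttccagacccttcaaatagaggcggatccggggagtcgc
FOS (chr14:75278578-75278827, plus strand): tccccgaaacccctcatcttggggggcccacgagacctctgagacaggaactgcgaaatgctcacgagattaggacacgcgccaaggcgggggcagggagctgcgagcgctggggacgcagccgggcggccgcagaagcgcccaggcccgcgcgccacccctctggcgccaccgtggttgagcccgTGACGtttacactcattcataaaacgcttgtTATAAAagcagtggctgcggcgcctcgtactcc
DUSP1 (chr5:172771196-172771445, minus strand): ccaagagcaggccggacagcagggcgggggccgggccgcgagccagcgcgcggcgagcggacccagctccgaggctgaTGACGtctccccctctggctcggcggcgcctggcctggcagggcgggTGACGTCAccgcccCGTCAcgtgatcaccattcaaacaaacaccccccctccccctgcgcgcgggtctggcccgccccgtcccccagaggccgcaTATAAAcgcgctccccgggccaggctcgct
SRF (chr6:43171019-43171268, plus strand): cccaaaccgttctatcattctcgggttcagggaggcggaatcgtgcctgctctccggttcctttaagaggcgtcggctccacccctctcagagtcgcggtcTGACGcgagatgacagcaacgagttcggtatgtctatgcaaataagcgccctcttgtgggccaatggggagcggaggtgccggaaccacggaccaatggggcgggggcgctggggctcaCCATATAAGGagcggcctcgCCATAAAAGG
The EGR1 stretch holds 2 CArG boxes, whose first bases lie 105 and 83 bases before the start. In FOS a CRE core lies 64 bases and a TATA box 33 bases before the start. DUSP1 has a full CRE at 125 and a TATA box at 30 bases before the start, and SRF has 2 CArG boxes at 30 and 10 bases.

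RefSeq promoter windows, from 250 bases before to 50 after the start, were found for 31 of the 43 genes, and 27167 windows of all genes stood beside them. The CArG box was in 2 of the 31 windows (EGR1 and SRF, 6.45%) and in 1.29% of all windows. The CRE TGACGTCA was in 4 (DUSP1, DUSP8, JUND and MAFF, 12.9%) against 1.96%, and its core TGACG in 18 (58.1%) against 25.0%. The EGR motif GCGNGGGCG was in 8 (25.8%) against 9.26%, the TATA box TATAAA in 6 (19.4%) against 12.0% and the AP-1 motif TGANTCA in 1 (FOSL2, 3.23%) against 7.78%. The NRF1 motif was found in none of the 31 windows and in 2.94% of all windows. The windows of the members were richer in G and C, with a median of 69.0% against 58.3%, which by itself changes how often GC-rich motifs occur. All motifs were read on both strands, and the full CRE always contains its core. A motif outside these windows was not counted, so a gene without a match here may carry one farther away.

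Set against its intergenic control, the NRF1 guide went with more of these genes higher in the adenine editors and more of them lower in SpCBE. That the directions were opposite was already known when the genes were chosen. In SpABE 35 of the 43 were higher, in SaABE 20 were higher and 1 was lower, and in SpCBE 2 were higher and 12 were lower, each at an adjusted p under 0.05 by the quasi-likelihood test of edgeR, adjusted after Benjamini and Hochberg over all genes (the test behind every adjusted p here). Of all genes tested, 15.4% were higher and 17.3% lower in SpABE, 16.9% higher and 15.5% lower in SaABE, and 11.0% higher and 12.0% lower in SpCBE. No member was lower in SpABE by that rule, against 1 at an unadjusted p under 0.05, and DESeq2 also called 0. The median log2 fold change of the 43 was 0.33 in SpABE, 0.17 in SaABE and -0.084 in SpCBE, beside -0.0015, 0.015 and 0.012 over all genes. The changes were small. Asking in addition for a log2 fold change over 0.5, as the study's calls do, left 11 higher members in SpABE (1.71% of all genes were higher and 4.7% lower by this rule), 1 higher and 1 lower in SaABE (1.24% and 4.81%) and 1 lower in SpCBE (0.84% higher and 3.61% lower).

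The 12 members lower in SpCBE were FOS, FOSL2, JUN, JUNB, ATF3, NR4A1, MAFF, CSRNP1, DUSP5, SPRY4, HBEGF and ARC. Of these, 5 (JUNB, ATF3, MAFF, CSRNP1 and SPRY4) kept their call with each library left out in turn. The number lower fell to 7 without SpCBE NRF1 replicate 2 or without SpCBE intergenic replicate 1, and to 8 without SpCBE NRF1 replicate 1 or SpCBE intergenic replicate 3. In SpABE 29 of the 35 rises passed in every fit that left out 1 library, and in SaABE 14 of the 20. The SpABE calls of IER3, KLF2, MCL1, NR4A3, SRF and TRIB1 and the SaABE calls of DUSP4, EGR3, HBEGF, MAFF, SGK1 and ZFP36L2 each failed without at least 1 library.

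**Figure D1:**
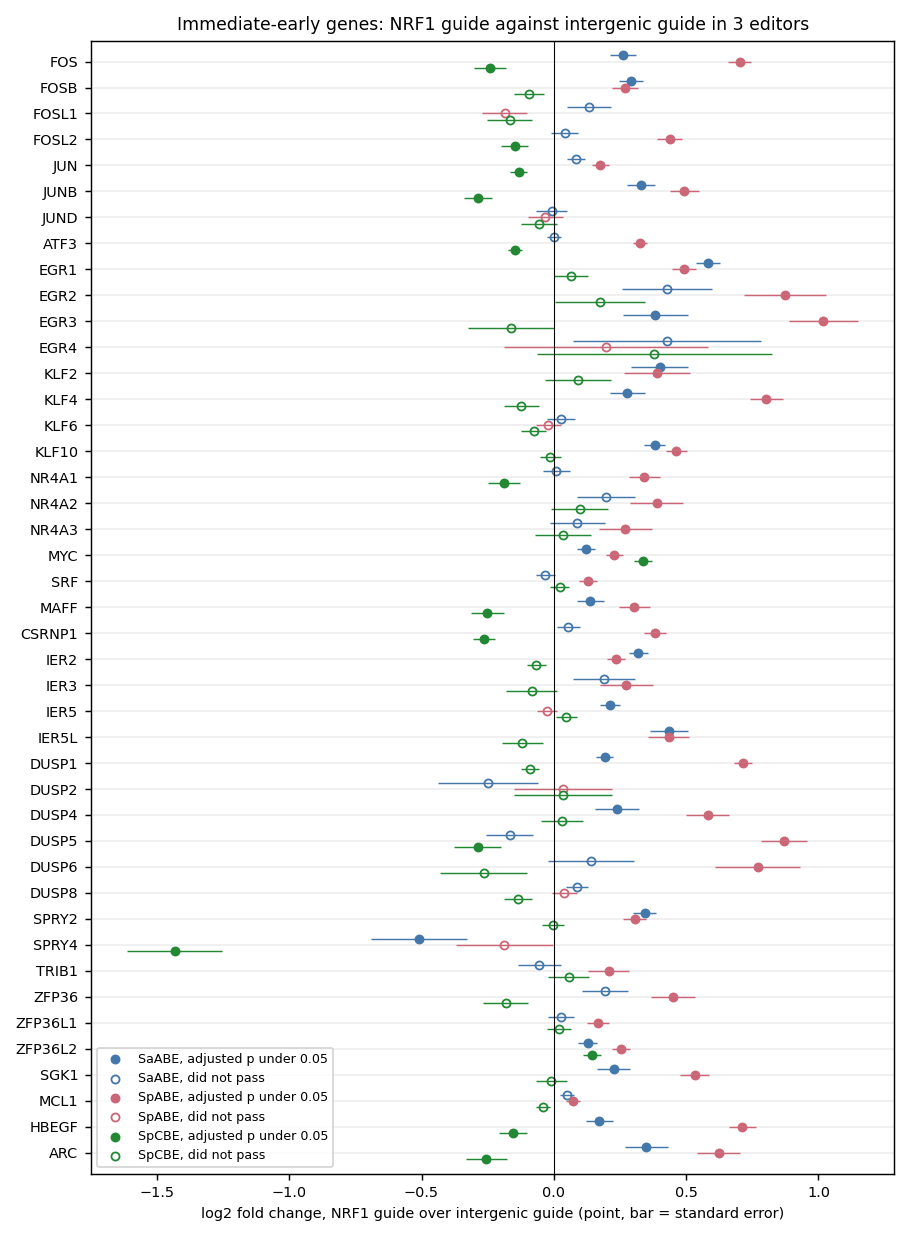
The log2 fold change of each of the 43 genes (rows) between the NRF1 guide and the intergenic guide in SaABE, SpABE and SpCBE, each from 3 against 3 libraries, with its standard error as a bar and filled points for adjusted p under 0.05. The SpABE points lie to the right of 0 for 35 filled genes, and 12 filled SpCBE points lie to the left.

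Over all 3 editors together, with the editor as a term, 20 members were higher and 1 lower, beside 20.6% and 18.8% of all genes. MYC, EGR1, ZFP36L2 and KLF10 had the smallest p, with log2 fold changes of 0.23 ± 0.027 (SE), 0.43 ± 0.052, 0.18 ± 0.024 and 0.28 ± 0.049 and adjusted p of 2.62e-07, 3.56e-07, 2.39e-06 and 7.95e-05. Without the editor term 5 were higher. MYC and ZFP36L2 were the 2 members that rose in each editor. Another 12 rose in both adenine editors and did not pass in SpCBE, and 5 (FOS, JUNB, MAFF, HBEGF and ARC) rose in both adenine editors and fell in SpCBE. FOSL2, JUN, ATF3, NR4A1, CSRNP1 and DUSP5 rose in SpABE, fell in SpCBE and did not pass in SaABE. FOSL1, JUND, EGR4, KLF6, DUSP2 and DUSP8 passed in no editor.

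The same values were also read library by library, which describes the chosen genes and is no independent support. Counting members whose 3 NRF1-guide libraries all lay above their 3 intergenic-guide libraries gave 32 in SpABE, 20 in SaABE and 2 in SpCBE, where 21.7%, 20.9% and 20.3% of all genes did so. All 3 lay below in 1, 2 and 17 members, beside 22.8%, 19.1% and 18.5% of all genes. As a single figure per library, the median over the 43 genes of the log2 deviation from the gene's own mean in the 9 intergenic-guide libraries was -0.12 to -0.095 in the SpABE controls and 0.23 to 0.25 with the NRF1 guide. In SaABE it was 0.15 to 0.21 and 0.31 to 0.38, and in SpCBE -0.088 to -0.029 and -0.16 to -0.14. By this figure, no library of a group reached the range of the other guide in the same editor. It was not computed over all genes. An exact two-sided permutation test of 3 against 3 libraries cannot go below p = 0.10, so single genes were tested only in the fit over all genes.

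FOS and JUN proteins pair to form the AP-1 transcription factor. Of the 7 genes, 5 rose in SpABE, 3 rose in SaABE and 4 fell in SpCBE. FOS (chr14:75278826-75282230, GENCODE 44 on hg38, like the other gene positions here) stood at 37.9, 36.9 and 36.3 CPM in the SpABE controls and at 60.3, 59.9 and 60.6 with the NRF1 guide. Its SaABE values were 34.8, 35.3 and 36.4 in the controls and 41, 44.6 and 42.3 with the NRF1 guide, and in SpCBE 17.6, 15.6 and 15.3 and 13.6, 12.6 and 14.8. The guides thus did not overlap in any editor, and the SpCBE libraries of both guides lay below every library of the adenine editors. The log2 fold change was 0.70 ± 0.045 (SE, adjusted p = 6.61e-12) in SpABE, 0.26 ± 0.048 (adjusted p = 1.57e-04) in SaABE and -0.24 ± 0.06 (adjusted p = 0.00441) in SpCBE, and without SpCBE intergenic replicate 1 the last no longer passed (adjusted p = 0.0536).

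JUN (chr1:58776845-58784048), the main partner of FOS, changed less. It was 336, 350.2 and 357 CPM in the SpABE controls and 396, 394 and 389 with the NRF1 guide, a log2 fold change of 0.18 ± 0.032 (adjusted p = 1.33e-04). In SpCBE it was 329, 318 and 307 and 302, 291 and 278, a change of -0.13 ± 0.032 (adjusted p = 0.00384, and 0.0613 without SpCBE NRF1 replicate 3). Each time the guides were apart in all libraries. In SaABE the values were 296, 277 and 283 and 304, 295 and 308, with overlap, and the change of 0.084 ± 0.033 did not pass (adjusted p = 0.0554), although it did under DESeq2 (adjusted p = 0.0218) and several other settings.

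JUNB, a JUN paralogue, had the strongest contrast between SaABE and SpCBE of any member by p. In SaABE it rose from 40.3, 37.1 and 40.5 to 48, 51 and 49.1 CPM and in SpABE from 22, 22 and 24.1 to 32.9, 30.4 and 32.5. In SpCBE it fell from 34, 30.2 and 32 to 26, 24.9 and 27.9. The log2 fold changes were 0.33, 0.49 and -0.29. FOSB rose in SaABE (0.29) and SpABE (0.27), FOSL2 rose in SpABE (0.44) and fell in SpCBE (-0.15). JUND and FOSL1 passed in no editor, with log2 fold changes from -0.057 to -0.0084 for JUND and from -0.19 to 0.13 for FOSL1.

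EGR proteins are zinc-finger factors, and EGR1 (chr5:138465479-138469303) is the most used marker of the response. Of the 4 genes, 3 rose in SpABE and 2 in SaABE. In SaABE EGR1 was 59.6, 54.9 and 61.3 CPM in the controls and 87.3, 93.5 and 82.8 with the NRF1 guide, and in SpABE 53.2, 53.2 and 52.5 and 73.5, 75.6 and 74.4. The guides did not overlap in either adenine editor. In SpCBE it was 16.1, 13.8 and 14.2 and 15.1, 16.1 and 15, which overlapped and lay far below the adenine editors with either guide. The log2 fold changes were 0.58 ± 0.046 (adjusted p = 3.83e-10) in SaABE, the largest rise of any member there, 0.49 ± 0.046 (adjusted p = 6.08e-09) in SpABE and 0.065 ± 0.066 (adjusted p = 0.54) in SpCBE. EGR3 had the largest log2 fold change of any member in SpABE, 1.02 ± 0.13 (adjusted p = 1.20e-06), from 3.57 ± 0.159 to 7.24 ± 1.36 CPM (SD, n = 3). EGR2 rose in SpABE (0.87, adjusted p = 7.79e-05) at 1.76 to 4.66 CPM. EGR4 was under 1 CPM in every library and passed between guides in no editor.

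**Figure D2:**
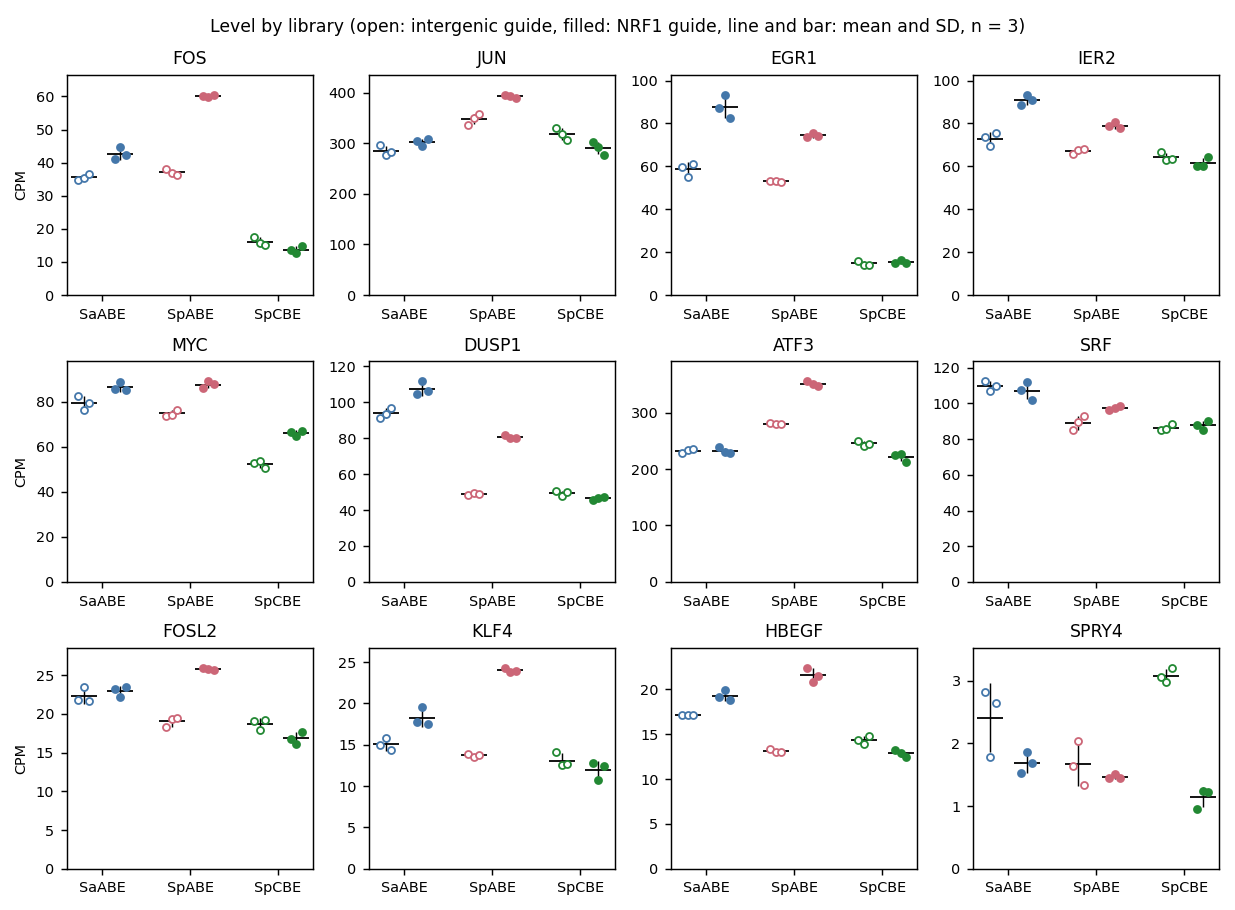
Level in CPM (vertical axes, from 0) of 12 of the genes in each of the 18 libraries, with open points for the intergenic guide, filled points for the NRF1 guide, and a line and bar for mean and SD (n = 3). FOS, DUSP1, KLF4 and HBEGF separate by guide most widely in SpABE, and FOS and EGR1 are lowest in all 6 SpCBE libraries.

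KLF proteins are related zinc-finger factors of growth and differentiation. Of the 4, 3 rose in SpABE and the same number in SaABE. KLF4 was 13.9, 13.6 and 13.7 CPM in the SpABE controls and 24.2, 23.8 and 23.9 with the NRF1 guide, a log2 fold change of 0.80 ± 0.062 (adjusted p = 2.50e-10). The SaABE libraries held 14.9, 15.8 and 14.4 and 17.7, 19.6 and 17.5 (0.28 ± 0.066, adjusted p = 0.00206), again without overlap, and in SpCBE 14.1, 12.5 and 12.6 and 12.8, 10.8 and 12.5 with overlap (-0.12 ± 0.068, adjusted p = 0.218). KLF10, which answers TGF-beta, rose in both adenine editors, from 55.3, 62.8 and 58.7 to 77.9, 74.4 and 77.9 in SaABE and from 52.5, 51.5 and 53.2 to 74.3, 70.6 and 71.7 in SpABE. Its log2 fold changes were 0.38 and 0.46, and their difference of -0.081 ± 0.056 (SE) did not pass (adjusted p = 0.404). In SpCBE it was 61.3, 60.7 and 57.4 and 60.8, 58.5 and 58.5 (-0.013). KLF2 rose in SaABE (0.40) and SpABE (0.39), at 2.81 to 8.83 CPM, and KLF6 passed in no editor.

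The NR4A genes code for orphan nuclear receptors, and all 3 rose in SpABE. NR4A1 did so by 0.34 ± 0.057 (adjusted p = 4.44e-05), from 26.6 ± 0.614 to 33.7 ± 1.29 CPM (SD, n = 3), and fell in SpCBE by 0.19 on the log2 scale (adjusted p = 0.0233). NR4A2 rose by 0.39 ± 0.10 and NR4A3 by 0.27 ± 0.10 in SpABE. NR4A3 no longer passed with the replicate number as a block (adjusted p = 0.0506), and the SpCBE fall of NR4A1 did not pass in 4 of the fits that left out 1 library, those without SpCBE NRF1 replicate 1 or 2 or SpCBE intergenic replicate 1 or 2.

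ATF3, a stress-induced relative of the AP-1 proteins, was 282, 279 and 279.6 CPM in the SpABE controls and 355, 350.4 and 347 with the NRF1 guide. In SpCBE it was 249.8, 241 and 245 and 225, 226 and 213, and in SaABE 228, 233 and 235 and 239, 229 and 228. The guides were apart upward in SpABE and downward in SpCBE, and overlapped in SaABE. Its log2 fold changes were 0.32 ± 0.026 (adjusted p = 3.85e-10), -0.15 ± 0.026 (adjusted p = 1.42e-04) and 0.00067 ± 0.027 (adjusted p = 0.992).

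MYC, the growth-promoting factor, rose in each editor. It was 52.6, 53.4 and 50.5 CPM in the SpCBE controls and 66.3, 64.6 and 66.9 with the NRF1 guide, 73.8, 74.1 and 76.4 and 86, 88.9 and 87.7 in SpABE, and 82.3, 76.2 and 79.6 and 85.7, 88.7 and 85 in SaABE. The NRF1-guide libraries were the higher ones in each editor, with no overlap. Its rise was 0.34 ± 0.034 (adjusted p = 4.44e-08) in SpCBE, 0.23 ± 0.033 (adjusted p = 5.38e-06) in SpABE and 0.12 ± 0.033 (adjusted p = 0.00614) in SaABE, the last no longer past the threshold with total counts as the only scaling (adjusted p = 0.0742). The SaABE rise was smaller than that in SpCBE, the difference SaABE minus SpCBE being -0.21 ± 0.048 on the log2 scale (adjusted p = 0.0106).

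SRF (chr6:43171269-43181506), which binds the CArG boxes of many of these genes and of its own promoter, moved little. It was 84.9, 89.6 and 92.8 CPM in the SpABE controls and 96.3, 97.6 and 98.6 with the NRF1 guide, a log2 fold change of 0.13 ± 0.036 (adjusted p = 0.00656, and 0.0561 without SpABE intergenic replicate 1). In SaABE it was 112, 107 and 109.5 and 108, 112 and 102, and in SpCBE 85.3, 85.6 and 88.5 and 88.1, 85.3 and 90, both with overlap. The changes there, -0.033 ± 0.036 and 0.023 ± 0.036, did not pass (adjusted p = 0.537 and 0.715).

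MAFF, a small MAF factor, and CSRNP1, a nuclear protein induced by AXIN, both rose in SpABE and fell in SpCBE. CSRNP1 went from 28.6, 28.1 and 29.5 to 38.8, 35.5 and 38 CPM in SpABE and from 33.8, 34 and 35.8 to 29.5, 27.8 and 28.9 in SpCBE, without overlap in either. Its changes were 0.38 ± 0.041 (adjusted p = 7.34e-08) and -0.26 ± 0.042 (adjusted p = 3.09e-05). MAFF went from 13.8, 13.6 and 14.5 to 17.3, 15.8 and 18.4 in SpABE (0.30) and from 13.6, 13.6 and 13.7 to 11.7, 11.1 and 11.5 in SpCBE (-0.25). In SaABE, where it was 30.4, 31.5 and 29.8 and 34.5, 35.1 and 31.5 with overlap, the rise of 0.14 passed at an adjusted p of 0.044 and failed in 12 of the 18 fits that left out 1 library.

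IER genes code for small proteins named only for their rapid induction. Of the 4, 3 rose in SpABE and 3 in SaABE. IER2 was 73.7, 69.6 and 75.3 CPM in the SaABE controls and 88.6, 93.5 and 90.7 with the NRF1 guide, and 65.5, 67.6 and 68.2 and 78.9, 80.4 and 77.7 in SpABE. In SpCBE it was 66.7, 63.1 and 63.5 and 60.2, 60.4 and 64.1. The adenine editors showed no overlap between guides and SpCBE did. The log2 fold changes were 0.32 ± 0.036 (adjusted p = 1.78e-07), 0.23 ± 0.036 (adjusted p = 1.19e-05) and -0.066 ± 0.036 (adjusted p = 0.22). IER5 passed in SaABE and in neither other editor, with 0.21 ± 0.037 against -0.024 ± 0.038 in SpABE, and the difference of 0.24 ± 0.053 passed (adjusted p = 0.0044). Its SaABE libraries held 167, 177 and 174 CPM with the intergenic and 203, 204 and 193 with the NRF1 guide. IER5L rose by the same 0.43 in SaABE and SpABE.

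DUSP genes code for phosphatases that remove the activating phosphates of MAP kinases. Of the 6, 4 rose in SpABE, 2 rose in SaABE and 1 fell in SpCBE. DUSP1 had the smallest p of any member in SpABE. It was 48.6, 49.5 and 49.1 CPM in the SpABE controls and 81.7, 80 and 80.2 with the NRF1 guide, 1.64-fold higher. In SaABE it was 91.4, 93.7 and 96.9 and 104, 112 and 106, and in SpCBE 50.5, 47.9 and 50.2 and 45.3, 46.9 and 47.3. The guides stood apart in all libraries, upward in SpABE and SaABE and downward in SpCBE, with log2 fold changes of 0.72 ± 0.034 (adjusted p = 2.09e-14), 0.19 ± 0.032 (adjusted p = 4.86e-05) and -0.09 ± 0.035 (adjusted p = 0.0717). The SpCBE value passed with total counts as the only scaling (adjusted p = 0.0383) and without SpCBE intergenic replicate 2 (adjusted p = 0.0489).

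DUSP5, which acts on nuclear ERK, was 6.8, 6.04 and 6.52 CPM in the SpABE controls and 12.3, 11.8 and 11.3 with the NRF1 guide, 1.83-fold higher. DUSP5 in SaABE was 9.07, 9.59 and 9.31 and 8.03, 8.16 and 8.69, and in SpCBE 7.44, 7.43 and 8.32 and 5.72, 5.83 and 7.39. The NRF1-guide libraries were the lower ones in both, and the test passed in SpCBE (-0.29 ± 0.089, adjusted p = 0.0209) but not in SaABE (-0.17 ± 0.088, adjusted p = 0.162). The SpCBE call failed without SpCBE NRF1 replicate 1 or 2 or SpCBE intergenic replicate 3. DUSP4 and DUSP6, also ERK phosphatases, rose in SpABE by 0.58 ± 0.082 and 0.77 ± 0.16, and DUSP6 lay at 1.88 to 3.93 CPM in all libraries. DUSP2 and DUSP8 passed in no editor.

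Sprouty proteins dampen receptor signals upstream of ERK. SPRY2 rose in SaABE from 26.6, 28.6 and 26.8 to 33.5, 35.1 and 35.4 CPM and in SpABE from 24.7, 23.3 and 23.7 to 30.2, 29.8 and 28.7, with no overlap (0.34 ± 0.043 and 0.31 ± 0.043, adjusted p = 9.18e-07 and 3.91e-06). In SpCBE it was 30.8, 29.7 and 29.1 and 29.8, 29.5 and 30.1, with a log2 fold change of -0.0034. SPRY4 (chr5:142310427-142326455) had the largest change of any member, and downward. It was 3.05, 2.98 and 3.2 CPM in the SpCBE controls and 0.954, 1.24 and 1.22 with the NRF1 guide, a log2 fold change of -1.43 ± 0.18 (adjusted p = 1.03e-06). SaABE had 2.82, 1.78 and 2.64 and 1.53, 1.87 and 1.69 (-0.51 ± 0.18, adjusted p = 0.0328), with overlap, and in SpABE 1.64, 2.04 and 1.33 and 1.45, 1.52 and 1.44 (-0.19 ± 0.18, adjusted p = 0.48). The SaABE fall was lost under DESeq2 and in 4 of the fits that left out 1 library, those without replicate 1 or 3 of either guide in SaABE. TRIB1, a pseudokinase, rose in SpABE by 0.21 ± 0.076 (adjusted p = 0.0404), a call that failed in 4 of the fits that left out 1 library, with the highest adjusted p, 0.232, without SpABE NRF1 replicate 2.

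ZFP36, ZFP36L1 and ZFP36L2 code for proteins that bind AU-rich RNAs and speed their decay, and all 3 rose in SpABE, by 0.45 ± 0.083, 0.17 ± 0.043 and 0.25 ± 0.035. ZFP36L2 rose in the other editors too, by 0.13 ± 0.036 in SaABE and 0.14 ± 0.035 in SpCBE. In SpCBE it was 57.8, 57 and 59.4 CPM with the intergenic guide and 64.2, 64 and 64.3 with the NRF1 guide. Its SaABE rise did not pass with total counts as the only scaling (adjusted p = 0.0686).

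Of the remaining 4 products, all rose in SpABE and 3 rose in SaABE. HBEGF, a membrane-bound ligand of the EGF receptor, was 13.4, 13 and 13 CPM in the SpABE controls and 22.4, 20.8 and 21.5 with the NRF1 guide, 1.64-fold higher (0.71 ± 0.05, adjusted p = 3.79e-11). In SaABE it was 17.2, 17.1 and 17.1 and 19.2, 20 and 18.8 (0.17 ± 0.051, adjusted p = 0.0114), and in SpCBE 14.3, 14 and 14.8 and 13.2, 13 and 12.5 (-0.15 ± 0.052, adjusted p = 0.0344). The guides did not overlap in any of the editors, although the SpCBE fall failed in 5 of the 6 fits that left out 1 SpCBE library, all but that without intergenic replicate 2, and the SaABE rise without SaABE NRF1 replicate 2. ARC, known from synapses, rose in SpABE by 0.62 ± 0.083 and in SaABE by 0.35 ± 0.081, and its change of -0.25 ± 0.079 in SpCBE (adjusted p = 0.0202) did not pass without SpCBE NRF1 replicate 2 or without SpCBE intergenic replicate 1 or 3. SGK1, a kinase of salt and survival signals, rose by 0.53 ± 0.054 in SpABE. MCL1, a survival protein, rose by 0.072 ± 0.027 (adjusted p = 0.0391) in SpABE, and not past the threshold with the replicate block (adjusted p = 0.0764).

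The differences between the editors' NRF1 effects were tested as such. Because the genes were chosen knowing that these effects ran opposite ways, the counts describe the list and are no independent support. The SpABE effect exceeded the SpCBE effect in 25 members and was below it in 0 (1 at an unadjusted p under 0.05, 0 with DESeq2), where 4.54% and 4.42% of all genes passed. The SaABE effect exceeded the SpCBE effect in 17 members and was below it in 1, MYC, beside 2.02% and 2.07% of all genes. Effects were compared with their sign. SPRY4 thus counts in both comparisons with SpCBE, at -0.51 in SaABE, -0.19 in SpABE and -1.43 in SpCBE. Set against SpABE, the SaABE effect was larger in 1 member, IER5, and smaller in 12, beside 6.37% and 5.33% of all genes. The median differences over the 43 genes were 0.43, 0.25 and -0.17 on the log2 scale, and all 3 medians over all genes were within 0.015 of 0. Each pair of these differences shares an editor and therefore 6 libraries.

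DUSP1, ATF3, FOS and HBEGF had the smallest p for SpABE minus SpCBE. Their differences were 0.81 ± 0.049 (SE, adjusted p = 1.44e-10), 0.47 ± 0.037 (adjusted p = 9.39e-09), 0.94 ± 0.075 (adjusted p = 1.28e-08) and 0.87 ± 0.072 (adjusted p = 3.06e-08). For SaABE minus SpCBE they were JUNB, IER2, KLF10 and FOS, at 0.62 ± 0.074 (adjusted p = 1.25e-05), 0.38 ± 0.051 (adjusted p = 5.56e-05), 0.39 ± 0.056 (adjusted p = 1.25e-04) and 0.50 ± 0.077 (adjusted p = 2.88e-04). Both adenine editors carry the same deaminase on different nickases and had different guides. Between them DUSP1, ATF3, DUSP5 and HBEGF differed most by p, by -0.52 ± 0.047 (adjusted p = 5.99e-08), -0.32 ± 0.037 (adjusted p = 3.41e-06), -1.04 ± 0.12 (adjusted p = 4.96e-06) and -0.54 ± 0.072 (adjusted p = 2.02e-05), SpABE having the larger rise each time. EGR1 was not among the genes that differed there (0.091 ± 0.065, adjusted p = 0.418).

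The editors also differed from each other with the intergenic guide. There, 27 members were higher and 6 lower in SaABE than in SpABE (19.3% and 19.1% of all genes), 23 higher and 8 lower in SaABE than in SpCBE (20.1% and 20.6%), and 14 higher and 10 lower in SpABE than in SpCBE (17.7% and 17.8%). With total counts as the only scaling the last 2 splits became 19 to 12 and 12 to 13. Without SpCBE intergenic replicate 1 the number lower in SaABE than in SpCBE was 4. EGR4 is among the 23 higher in SaABE than in SpCBE (1.22 ± 0.41, adjusted p = 0.0204), a call that failed without SaABE intergenic replicate 1 or 3 or SpCBE intergenic replicate 3. The median log2 differences were 0.26, 0.20 and 0.033. These control libraries are the same ones that the NRF1 effects above are measured against.

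DUSP8, a phosphatase of JNK and p38, had the largest log2 difference of any member between the SaABE controls and those of either other editor, and EGR1 had it between SpABE and SpCBE. DUSP8 was 200.0, 187 and 199 CPM in the SaABE controls, 65.5, 72.6 and 75.9 in SpABE and 43.6, 42.6 and 41.7 in SpCBE, an order in which no 2 editors overlapped. SaABE was 2.74-fold above SpABE (log2 1.45 ± 0.045, adjusted p = 1.58e-17) and 4.58-fold above SpCBE (log2 2.19 ± 0.047, adjusted p = 2.81e-21). EGR1 was 3.98-fold higher in SaABE and 3.6-fold higher in SpABE than in SpCBE (log2 1.99 ± 0.056 and 1.85 ± 0.055, adjusted p = 6.68e-19 and 8.47e-18), while SaABE and SpABE differed by 0.14 ± 0.047 (adjusted p = 0.0179, a call that failed without SaABE intergenic replicate 1 or 3 or SpABE intergenic replicate 3). FOS was 2.29-fold higher in SpABE than in SpCBE (adjusted p = 1.60e-14), and its SaABE and SpABE controls did not pass (-0.061 ± 0.048, adjusted p = 0.348). MYC was 1.43-fold higher in SpABE than in SpCBE (adjusted p = 4.17e-11).

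Other members were highest in the SaABE controls. JUND was 186, 170.1 and 183 CPM in SaABE, against 61.4, 68.9 and 74.9 in SpABE and 53.3, 55.8 and 59 in SpCBE, and no 2 editors overlapped. DUSP1 was 1.92-fold (log2 0.94 ± 0.034) and MAFF 2.19-fold (log2 1.13 ± 0.056) higher in SaABE than in SpABE, and the SpABE and SpCBE controls of both differed by -0.011 ± 0.035 and 0.033 ± 0.06 and did not pass (adjusted p = 0.841 and 0.714). NR4A1 stood at 53.9 ± 3.2 CPM in SaABE (SD, n = 3) and at 26.6 ± 0.614 and 26.9 ± 0.607 in SpABE and SpCBE. IER5 was 167, 177 and 174 CPM in SaABE, against 119, 121 and 124 in SpABE and 85.2, 78.1 and 83.3 in SpCBE, again without overlap. JUN, ATF3, KLF6, ZFP36L1, SGK1 and IER3 were the 6 members lower in SaABE than in SpABE, by 0.27 to 0.47 on the log2 scale. JUND and DUSP8, with the largest log2 differences between the SaABE and SpABE controls, passed between guides in no editor.

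**Figure D3:**
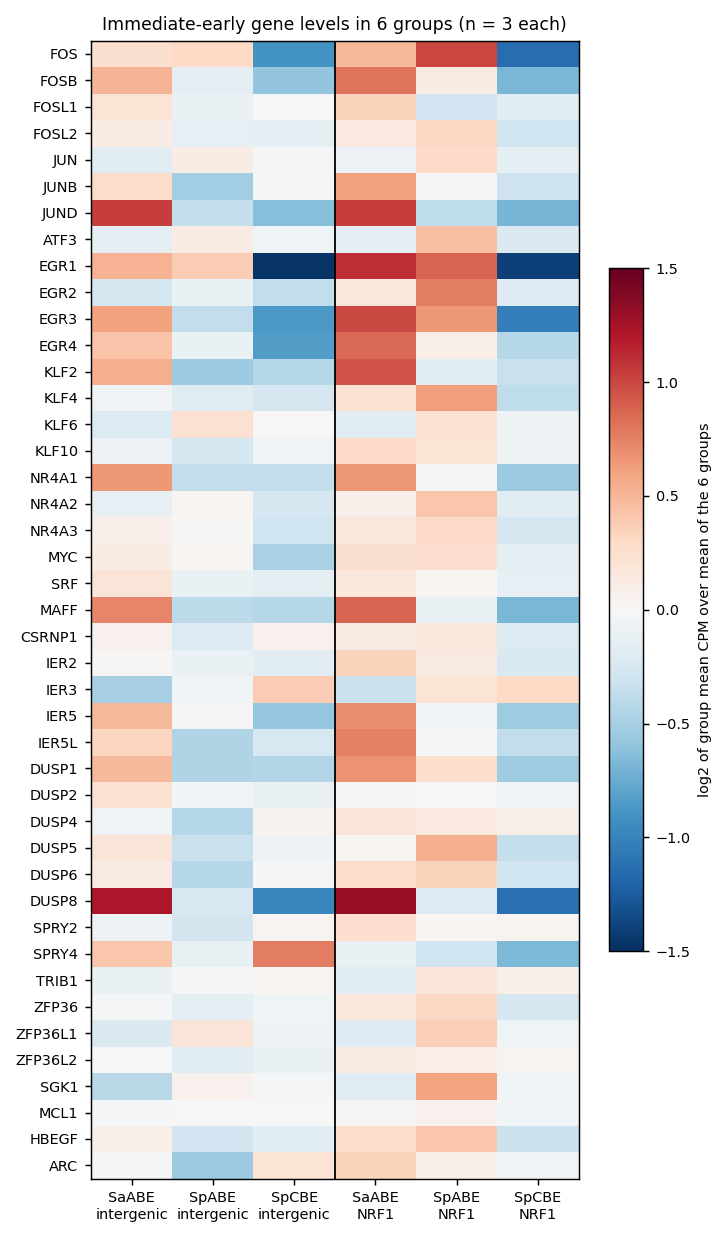
Each row is 1 of the 43 genes and each column 1 of the 6 groups (mean of 3 libraries), coloured by the log2 of the group mean CPM over the mean of the 6 groups, from blue (lower) to red (higher). EGR1 and FOS are blue in both SpCBE columns, DUSP8 and JUND are red in both SaABE columns, and SPRY4 is red in the SpCBE controls and blue with the NRF1 guide.

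The genes of the upstream pathways were read from lists of other genes. Genes were named by the smallest p for SpABE minus SpCBE, so they need not resemble the rest of their list. The background for each list, here and below, is the share of all genes that passed. It was 15.4% higher and 17.3% lower in SpABE, 16.9% and 15.5% in SaABE, and 11.0% and 12.0% in SpCBE. The medians over all genes were -0.0015, 0.015 and 0.012. Of 30 genes of the ERK cascade, from receptors to kinases, 7 were higher and 7 lower in SpABE, SaABE had 5 and 5 and SpCBE 4 and 4. The medians were 0.0085, -0.00067 and -0.017. The 30 include the inhibitors NF1, RASA1, SPRED1 and SPRED2. IGF1R, a growth factor receptor, rose in SpABE (0.13, adjusted p = 0.0036) and SaABE (0.11, adjusted p = 0.0164). MAP2K1, a kinase of the cascade, also rose in SpABE (0.091) and SaABE (0.14). Of 15 genes of the JNK and p38 cascade, 3 were higher in SpABE, 4 higher and 2 lower in SaABE and 3 higher in SpCBE. MAPK8, the JNK1 kinase, rose in SaABE (0.23) and SpCBE (0.22) and was at 0.049 in SpABE (adjusted p = 0.337). MAPKAPK2, a p38 target, rose in SpABE (0.16) and SaABE (0.11), and MAP3K5 was at -0.17 (adjusted p = 0.124). Of 16 factors listed as acting on immediate-early promoters, 8 were higher and 6 lower in SpABE, 3 and 5 in SaABE and 2 and 4 in SpCBE. The 16 include TCF3, whose place among them was not checked. The co-activator CREBBP (0.19), MEF2D (0.21) and the CREB partner CRTC2 (0.19) rose in SpABE, and the 6 factors that were lower there are not named.

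Of 17 tested SRF and MRTF targets of the cytoskeleton, 10 were higher and 1 lower in SpABE, with a median of 0.16. In SaABE 3 were higher and 4 lower and in SpCBE 4 and 1, with medians of -0.045 and -0.026. CCN1, a matricellular protein that is itself rapidly induced, was 31.1 ± 1.78 CPM in the SpABE controls and 51.9 ± 1.53 with the NRF1 guide (SD, n = 3), a log2 fold change of 0.74 (adjusted p = 1.02e-12), beside 0.17 in SaABE and 0.13 in SpCBE. ANKRD1 rose in SpABE (0.62) and fell in SaABE (-0.87), and CCN2 rose in SpABE (0.73). Of 19 tested delayed-early growth genes, 10 were higher and 4 lower in SpABE, 4 and 3 in SaABE and 3 and 6 in SpCBE, with medians of 0.23, 0.049 and -0.13. VGF, a secreted growth-factor-induced protein, rose in SpABE (0.67) and SaABE (0.32) and fell in SpCBE (-0.47, adjusted p = 0.0122). BHLHE40 rose in SpABE (0.35) and fell in SaABE (-0.25), and TNFRSF12A rose in SpABE (0.36). Of 12 tested NF-kB targets, 3 were higher in SpABE, RELB among them (0.38), and 2 were lower in SaABE. NFKBIA was at 0.10 and CD83 at 0.046 in SpABE, neither of which passed. Of 3 tested nuclear-retained RNAs, MALAT1 rose (0.27) and KCNQ1OT1 fell (-0.48) in SpABE, and NEAT1 was at -0.043 (adjusted p = 0.728).

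Heat-shock genes, chaperones that answer damaged protein, were read beside the immediate-early genes. Of 18, 11 were higher and 4 lower in SpABE, 10 and 3 in SaABE and 1 and 5 in SpCBE, with medians of 0.11, 0.13 and -0.034. HSPB1 rose in SpABE (0.38) and fell in SaABE (-0.11) and SpCBE (-0.25). CRYAB rose by 1.33 in SpABE. HSPA1B rose in SpABE (0.36) and SaABE (0.25) and fell in SpCBE (-0.18), values that are uncertain because its reads could be split with the near-identical copy HSPA1A. With the intergenic guide all 18 heat-shock genes were lower in SpCBE than in SpABE and than in SaABE, at a median log2 difference of 0.62 and 1.16. Among all genes tested, 17.7% were lower in SpCBE than in SpABE and 20.1% lower than in SaABE. The 10 most abundant genes, over all genes, took 5.86% to 6.05% of counts in the SaABE controls and 6.39% to 6.61% with the NRF1 guide, 4.59% to 4.67% and 5.05% to 5.17% in SpABE, and 3.86% to 3.9% and 3.97% to 4.1% in SpCBE. The part of heat-shock genes and of library composition in the immediate-early changes was not tested.

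**Figure D4:**
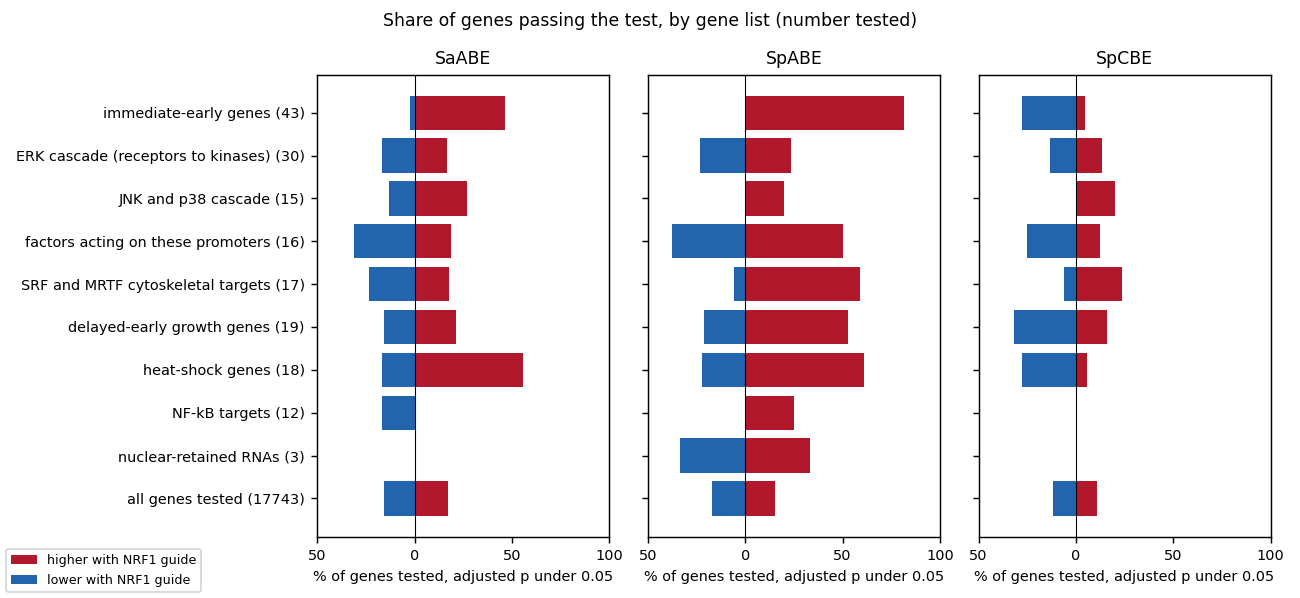
For each editor, the percent of tested genes of each list that were higher (red, to the right) or lower (blue, to the left) with the NRF1 guide at an adjusted p under 0.05, with the number tested in brackets and all 17743 genes in the last row. The immediate-early genes have a red bar of 81.4% in SpABE and 46.5% in SaABE and a blue bar of 27.9% in SpCBE.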

How the data were processed

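Polyadenylated RNA of 18 HEK293T libraries (6 groups of 3, grouped by the labels) was read from 1 table of estimated counts per gene deposited by the authors. Per the labels and the study's methods they used cutadapt 1.18, STAR 2.7.0f, GENCODE 30 and DESeq2 1.46.0, and the counting program and its strand setting were not given in any source used here. The deposited estimated counts were not whole for 19.63% of nonzero values and were rounded. The table's other 18 columns of samples were not used.

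Counts were scaled by TMM and tested with edgeR 4.0.16 (quasi-likelihood, filterByExpr, 6 group means over all 18 libraries, or additive editor and guide terms for all 3 editors together) in R 4.3.3, with Benjamini-Hochberg adjustment over 17743 genes. The biological coefficient of variation was 3.1%. Differences of NRF1 effects were interaction contrasts. Alternatives were DESeq2 1.42.0, other scalings, filters and samples, unrounded counts, a replicate block and each library left out. Counts of members without overlap between guides were added after seeing the data. The script was tested on simulated data.

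The members and lists were chosen with earlier results of these data known. Among those results, the NRF1 effect on the members ran opposite ways between editors. All 43 members could be named. Per-library values are given for FOS, JUN, EGR1, IER2, MYC, DUSP1, ATF3 and SRF and, in each comparison, for up to 4 members with the smallest p and a mean CPM of at least 1. Up to 3 genes of each other list were named by the smallest p for SpABE minus SpCBE. A gene that this rule names is not reported here.

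Replicate numbers are shared between guides, and nothing in the labels says that a number marks a shared culture or day. Over 8218 genes whose mean CPM reached 20, the deviations of same-numbered SpABE libraries correlated (Pearson) at 0.17, 0.138 and 0.137. Those of SaABE correlated at -0.41, -0.374 and -0.031 and those of SpCBE at 0.032, 0.042 and 0.115. In SaABE, NRF1 replicate 1 correlated with intergenic replicate 2 at 0.366, and NRF1 replicate 2 with intergenic replicate 1 at 0.395. The other differently numbered SaABE pairs lay between -0.083 and 0.119. With genes down to a mean CPM of 10 (10023 genes), the SpABE values were -0.06, 0.027 and 0.166. By rank (Spearman) they were 0.159, 0.12 and 0.123 there, and 0.193, 0.138 and 0.145 at a mean CPM of 20. The SpABE pairing is thus a hint from the data only. Promoter sequences are RefSeq's on GRCh38.p14, and gene positions are from GENCODE 44.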

Additional observations from a re-analysis of the deposited data

Results flagged for a closer look

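These members came up because the difference between 2 editors' NRF1 effects itself passed at an adjusted p under 0.05 in edgeR's quasi-likelihood test. Effects were compared with their sign, so SPRY4 is listed as larger in the adenine editors although its value was negative in every editor. The log2 effect of the NRF1 guide was larger in SaABE than in SpABE in 1 member, with a difference (SaABE minus SpABE) in IER5 (0.237). The log2 effect of the NRF1 guide was smaller in SaABE than in SpABE in 12 members, with a difference (SaABE minus SpABE) in FOS (-0.44), FOSL2 (-0.396), ATF3 (-0.324), EGR3 (-0.635), KLF4 (-0.526), NR4A1 (-0.333), SRF (-0.162), CSRNP1 (-0.328), DUSP1 (-0.525), DUSP5 (-1.04), SGK1 (-0.306) and HBEGF (-0.541). The log2 effect of the NRF1 guide was larger in SaABE than in SpCBE in 17 members, with a difference (SaABE minus SpCBE) in FOS (0.503), FOSB (0.385), JUN (0.216), JUNB (0.615), ATF3 (0.149), EGR1 (0.518), KLF4 (0.4), KLF10 (0.394), MAFF (0.389), CSRNP1 (0.32), IER2 (0.384), IER5L (0.554), DUSP1 (0.281), SPRY2 (0.346), SPRY4 (0.924), HBEGF (0.327) and ARC (0.604). The log2 effect of the NRF1 guide was smaller in SaABE than in SpCBE in 1 member, with a difference (SaABE minus SpCBE) in MYC (-0.214). The log2 effect of the NRF1 guide was larger in SpABE than in SpCBE in 25 members, with a difference (SpABE minus SpCBE) in FOS (0.942), FOSB (0.363), FOSL2 (0.586), JUN (0.307), JUNB (0.779), ATF3 (0.473), EGR1 (0.427), EGR3 (1.18), KLF4 (0.926), KLF10 (0.475), NR4A1 (0.532), MAFF (0.554), CSRNP1 (0.648), IER2 (0.301), IER5L (0.555), DUSP1 (0.806), DUSP4 (0.55), DUSP5 (1.16), DUSP6 (1.03), SPRY2 (0.309), SPRY4 (1.25), ZFP36 (0.631), SGK1 (0.541), HBEGF (0.868) and ARC (0.877). Of these calls, EGR3, SGK1 and SRF for SaABE minus SpABE and ATF3, KLF4 and SPRY4 for SaABE minus SpCBE failed in at least 1 of the fits that left out 1 library. With the replicate block, SRF for SaABE minus SpABE (adjusted p = 0.0538) and ATF3 and SPRY4 for SaABE minus SpCBE (0.0740 and 0.0760) did not pass. The comparisons share libraries, and no cause was tested. Because the genes were chosen knowing that the effects ran opposite ways, these calls describe the list and are no independent support.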

How the results depend on the processing

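No member called in a comparison changed direction under any alternative (0 of 6020 values), and 282 of these values no longer passed. Without the editor term, 5 members were higher over all 3 editors together (20 with it). The 1 member lower in SaABE, SPRY4, became 0 under DESeq2, with the replicate block and with only the libraries compared, and 0 to 1 with each library left out. The 12 lower in SpCBE became 7 to 13 with each library left out. The 1 member with a larger effect in SaABE than in SpABE became 2 without a filter, and 1 to 2 with each library left out. The 8 lower in SaABE than in SpCBE with the intergenic guide became 5 with only the libraries compared, and 4 to 8 with each library left out. The replicate block left SaABE with 20 members higher and 0 lower, SpABE with 33 and 0, SpCBE with 2 and 10, and all editors together with 17 and 1. Beside NR4A3 and MCL1 in SpABE, the calls lost with the block were DUSP4 (adjusted p = 0.0506) and SPRY4 (0.0547) in SaABE, FOSL2 (0.0552) and HBEGF (0.0672) in SpCBE, HBEGF (0.0538), IER5 (0.0783) and ARC (0.0984) over all editors, SRF (0.0538) for SaABE minus SpABE, and ATF3 (0.0740) and SPRY4 (0.0760) for SaABE minus SpCBE. For the differences of effects the block gave 1 and 11, 15 and 1, and 25 and 0. The block cannot be fitted between editors' controls. With total counts as the only scaling, SaABE had 1922 genes higher and 3406 lower, and SpABE 2114 and 3589. The rises of MYC, ZFP36L2, DUSP4, MAFF and HBEGF in SaABE then no longer passed. Neither did those of NR4A3, IER3, MCL1 and TRIB1 in SpABE. EGR4, under 1 CPM, had standard errors of 0.36 to 0.44 on the log2 scale between guides, wider than most changes of other members.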
